A study of Mus musculus with 16 samples.

Results

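Hoxb13 chromatin immunoprecipitation followed by sequencing (ChIP-seq) was compared between hearts of mice given the aminoglycoside antibiotics Paromomycin and Neomycin (Paro/Neo) and hearts of mice given vehicle. The comparison takes the 4 deposited Hoxb13 peak lists, 2 from Paro/Neo and 2 from vehicle, out of 16 samples in the series. These lists hold 24107 of the 33378 peaks in the 8 peak lists of the series. Merging every pair of peaks that shared at least 1 bp gave 17634 Hoxb13 regions. A region counts as called in each library that contributed a peak to it.

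Vehicle mice, called controls here, received phosphate-buffered saline, and Paro/Neo mice received 150 mg/kg of the combination 2 times a day by intraperitoneal injection. Injections began on postnatal day 7 and ran for 7 days, and ventricles were collected on postnatal day 15. No strain, sex or genotype is given in the labels. Ventricles of 2 hearts are named per sample as biological duplicates, which can mean a pool or 1 heart per replicate, so a p-value over libraries measures only the spread between these 4 libraries. The question, as the series title and design put it, is what an approved drug pair said to induce heart regeneration does to the binding of Meis1 and Hoxb13 on heart chromatin.

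Hoxb13 is a homeodomain transcription factor of the posterior Hox group, best known from the prostate and the tail end of the embryo. In the mouse heart it has been described as a partner of the TALE homeodomain factor Meis1, and loss of both prolongs the period in which cardiomyocytes divide after birth. Calcineurin, a calcium-activated phosphatase, has been described as acting on Hoxb13 in these cells. ChIP-seq peaks mark stretches of DNA recovered with the antibody more often than the local background. They record neither the expression of a gene nor the cell type from which the DNA came.

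Promoter stretches under the peaks that carry the comparison are shown first, as the 250 bases before the RefSeq start on the gene's own strand (build GRCm38.p6). They stand for a region shared by all 4 lists (Stx16) and a shared region ranked nearer the top in controls (Sp1). Vcp stands for a region among the 821 strongest peaks of both control lists and of neither Paro/Neo list. Paro/Neo replicate 2 still called the Vcp region, at rank 2708 of its 16963 peaks. Zfp280d and Ndufa12 stand for regions found in both Paro/Neo lists and in neither control list. Capitals mark matches, on either strand, to the motifs searched for and spelled out further on.
Stx16, chr2:174076052-174076301, plus strand: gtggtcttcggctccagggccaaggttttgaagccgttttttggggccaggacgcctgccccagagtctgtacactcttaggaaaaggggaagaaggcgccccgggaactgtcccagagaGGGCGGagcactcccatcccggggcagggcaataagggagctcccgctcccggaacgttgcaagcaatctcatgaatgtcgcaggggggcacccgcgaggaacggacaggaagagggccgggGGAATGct
Sp1, chr15:102406066-102406315, plus strand: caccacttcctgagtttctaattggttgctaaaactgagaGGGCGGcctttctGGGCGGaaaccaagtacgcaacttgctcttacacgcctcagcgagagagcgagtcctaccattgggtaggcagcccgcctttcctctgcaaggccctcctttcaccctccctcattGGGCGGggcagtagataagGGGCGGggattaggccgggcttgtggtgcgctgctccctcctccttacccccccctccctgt
Vcp, chr4:43000508-43000757, minus strand: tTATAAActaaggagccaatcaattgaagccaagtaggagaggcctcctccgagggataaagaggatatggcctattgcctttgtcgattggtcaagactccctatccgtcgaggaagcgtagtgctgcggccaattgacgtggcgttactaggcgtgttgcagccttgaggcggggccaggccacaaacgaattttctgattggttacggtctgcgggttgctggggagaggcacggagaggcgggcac
Zfp280d, chr9:72274638-72274887, plus strand: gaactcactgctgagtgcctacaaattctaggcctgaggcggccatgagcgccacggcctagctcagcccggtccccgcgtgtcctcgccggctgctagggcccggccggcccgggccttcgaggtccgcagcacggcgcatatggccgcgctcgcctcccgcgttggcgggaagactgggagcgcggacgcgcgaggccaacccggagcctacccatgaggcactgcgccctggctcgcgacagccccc
Ndufa12, chr10:94198785-94199034, plus strand: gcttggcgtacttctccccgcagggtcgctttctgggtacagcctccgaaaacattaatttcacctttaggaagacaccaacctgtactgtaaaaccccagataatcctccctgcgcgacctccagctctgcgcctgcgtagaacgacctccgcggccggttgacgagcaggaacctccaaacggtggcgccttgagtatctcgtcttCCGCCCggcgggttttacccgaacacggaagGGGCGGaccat
The Stx16 stretch was covered along all 250 bases in every library. Of the Sp1 stretch, 250, 250, 16 and 250 bases lay under a peak in control replicates 1 and 2 and Paro/Neo replicates 1 and 2. For Vcp the covered bases in the same order were 248, 212, 0 and 239. Zfp280d had 0 and 0 covered bases in the controls against 74 and 209 under Paro/Neo, and Ndufa12 had 0 and 0 against 218 and 228. The Stx16 stretch holds GGGCGG, the core of the GC box bound by Sp-family factors, and CATTCC, the core read by TEAD factors. The Sp1 stretch holds 4 GGGCGG matches, that of Ndufa12 holds 2, that of Vcp holds 1 TATAAA match, and that of Zfp280d holds none of the motifs.

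The 4 lists differed in length far more within a group than between groups. Control replicates 1 and 2 held 5202 and 1121 peaks, and Paro/Neo replicates 1 and 2 held 821 and 16963. Each group thus has 1 long and 1 short list, and the Paro/Neo lists were both the shortest and the longest. On the log2 scale the mean peak number was 11.2 ± 1.57 in controls and 11.9 ± 3.09 under Paro/Neo (SD, n = 2 each), a difference of 0.63 (exact two-sided permutation test over 6 orders of the libraries, p = 1; the smallest p this design allows is 0.333). Leaving out Paro/Neo replicate 2 gave -1.56 and leaving out control replicate 2 gave -0.48, so its sign rests on single libraries. Covered length was 3171.68 and 752.511 kb in controls and 553.208 and 12707.6 kb under Paro/Neo, a log2 difference of 0.78 (exact permutation p = 1) that also turned to -1.48 with Paro/Neo replicate 2 left out and to -0.26 with control replicate 2 left out. The files do not give the sequencing depth, on which the number of peaks also depends.

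Because of these lengths, genes and functions are described on equal-length lists, in which each library keeps its 821 peaks of highest deposited fold enrichment, beside the full lists. A rank of 1 is the highest fold in a list. The equal-length list is 15.8% of the full list in control replicate 1, 73.2% in control replicate 2, all of Paro/Neo replicate 1 and 4.84% of Paro/Neo replicate 2. The lowest fold kept was accordingly 3.83, 3.19, 1.48 and 4.27. Cutting to equal length therefore does not make the 4 lists equally strict, and Paro/Neo replicate 1 enters with its weakest peaks.

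At equal length the lists of 1 group resembled each other no more than they resembled the lists of the other group. Of the 821 strongest peaks of control replicate 1, 46.8% shared a base with one of control replicate 2, 43.8% with one of Paro/Neo replicate 1 and 47.1% with one of Paro/Neo replicate 2. Of those of Paro/Neo replicate 1, 45.6% were found in Paro/Neo replicate 2, 47.5% in control replicate 1 and 50.3% in control replicate 2. The lowest share over all directions was that of Paro/Neo replicate 2 in Paro/Neo replicate 1, 38.7%. Merging the equal-length lists gave 1856 regions, of which 212 were called in all 4, and between 269 and 343 in a single library.

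The 10 regions of lowest mean rank over the 4 lists are given here. The region at the start of Slc44a1, a choline transporter gene, ranked 2 and 3 in controls and 1 and 5 under Paro/Neo. At the start of Stx16, which encodes a syntaxin of the trans-Golgi network (chr2:174075798-174076507), the ranks were 1 and 1 against 8 and 2. A region 108757 bp from Jun ranked 4 and 2 against 5 and 4, and the start of Cenpu, a centromere protein gene, ranked 3 and 4 against 7 and 1. The next in mean rank lay 1827 bp outside Cd3e, at Foxj3, 2844 bp outside Tle2, inside Tpcn1, across Pln and Cep85l, and at Usp7. Pln encodes phospholamban, the inhibitor of the cardiac calcium pump, and its region of 13409 bp (chr10:53335266-53348674) ranked 13 and 18 in controls and 12 and 18 under Paro/Neo. All 10 regions lie within the first 26 ranks of every list, which follows in part from their choice by mean rank over all 4 lists.

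Regions called in both lists of 1 group and in neither of the other were few in the full lists. There were 3 such control-specific regions, 0.017% of all regions, and 32 Paro/Neo-specific ones, 0.181%. A control-specific region of the full lists has to be missed by Paro/Neo replicate 2, the longest list, which alone called 12540 regions, whereas a Paro/Neo-specific one has only to be missed by 2 shorter lists. Read against that, 449 regions were called in all 4 lists, and another 446 missed Paro/Neo replicate 1 alone. Of the 901 regions called in both control lists, 50.2% were called in Paro/Neo replicate 1, 99.3% in Paro/Neo replicate 2, and 3 in neither. The share found in Paro/Neo replicate 1 was 31.4% among the regions of lowest control fold (percentiles 0 to 44.7) and 84.0% among those of highest (83.8 to 100).

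The 3 control-specific regions of the full lists lay 265 bp outside Nr4a1, an immediate early orphan nuclear receptor gene, at the start of Usp15, a deubiquitinase gene, and within Sfi1, a centrosome protein gene. Their fold percentiles within the control lists (100 is the highest fold) were 64.7 and 55.3 for Nr4a1, 6.56 and 9.02 for Usp15, and 0.423 and 1.25 for Sfi1. The Usp15 and Sfi1 regions were thus near the bottom of both control lists. At the Nr4a1 locus Paro/Neo replicate 2 held 3 other peaks within 5 kb of the gene, the strongest at rank 912, so the gene as a whole was not control-specific.

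Among the 32 Paro/Neo-specific regions of the full lists, the start of Zfp280d, a zinc finger protein gene (chr9:72274679-72275849), stood first with fold percentiles of 86.6 and 96.8. The next 9 by mean percentile lay within Jup (60.6 and 93.2), 67 bp outside Hopx (65.4 and 80.6), within Myo18b, at Cbfa2t2, 49743 bp from Gpc5, 92369 bp from N6amt1, and at Nsmaf, Dhrs7 and Ndufa12. Jup encodes plakoglobin, a junction protein of the desmosome and of the intercalated disc. Hopx encodes a small homeodomain protein of the heart that lacks DNA binding of its own, Myo18b an unconventional myosin of striated muscle, and Ndufa12 a subunit of respiratory complex I. Jup holds other peaks in both control lists, at ranks 1012 and 742, and only the particular region was unmatched there. At the level of genes (body with 5 kb on each side), 1 of 21887 protein-coding genes, Usp15, was control-specific in the full lists (0.00457%) and 29 were Paro/Neo-specific (0.132%).

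At equal length the numbers of group-specific regions were close, 46 for controls (2.48% of 1856 regions) and 37 for Paro/Neo (1.99%). By gene there were 64 control-specific (0.292%) and 55 Paro/Neo-specific (0.251%) of 21887. With lists of 400 peaks the Paro/Neo-specific regions numbered 20. Control-specific regions lay within 1 kb of a gene start in 35 of 46 cases (76.1%) and Paro/Neo-specific regions in 24 of 37 (64.9%). Over all peaks of the equal-length lists the share was 70.4% and 59.4% in controls and 58.3% and 59.9% under Paro/Neo. In the 212 regions called in all 4 it was 71.2%. Either edge counted as a start for genes whose strand the promoter table does not hold. Without such genes, 28 of the 46 and 19 of the 37 regions lay at a start.

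The control-specific regions of the equal-length lists were led by Egr1, the immediate early zinc finger gene induced by growth factors and stretch, where a region overlapping the gene ranked 160 and 156 in the control lists. The promoter table holds no strand for Egr1, so the region cannot be assigned to its start or its end here. Paro/Neo replicate 1 had no peak at Egr1, and in the full list of Paro/Neo replicate 2 its best peak ranked 4970. Next came B3gntl1 (ranks 287 and 57), Vcp, an ATPase that extracts ubiquitylated proteins from complexes and membranes (290 and 113), and Lsm14b (304 and 112). They were followed by a region 9418 bp from Pltp (262 and 215), Arrdc2 (309 and 171), Nup85, a nuclear pore scaffold gene (306 and 198), and Hmgn1, a nucleosome-binding protein gene (433 and 93). The list of 10 closed with the start of Ubn2, a histone chaperone gene (93 and 459), and Btg2, an antiproliferative immediate early gene (177 and 375). All 46 regions were absent from Paro/Neo replicate 1, which has no longer list to look in, and all 46 were present in the full list of Paro/Neo replicate 2, at a median fold percentile of 87.3. No region of this set was therefore lost from both Paro/Neo libraries.

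The Paro/Neo-specific regions of the equal-length lists were led by a site within Sbk1, a kinase gene, at ranks 63 and 69. In the full list of control replicate 1 this site ranked 1473, and control replicate 2 had no peak there. A region of 3144 bp across Rassf4 and the end of Depp1 ranked 124 and 279 (888 in control replicate 1). Depp1 is a known target of FoxO transcription factors. The site 372005 bp from Mctp2 ranked 422 and 72, and that at Clk2 and Scamp3 400 and 106. The end of Trim63, which encodes MuRF1, the muscle ubiquitin ligase that marks sarcomere proteins for breakdown, ranked 513 and 45, against 1141 and 846 in the full control lists. Others were Cdc42bpa (231 and 418), Zfp280d (111 and 550), H2az2, a histone variant gene (431 and 277), Zfp710 (177 and 533) and Dazap1 (539 and 171). Of the 37 regions, 35 were present in the full list of control replicate 1 and 8 in that of control replicate 2, with 2 in neither. Where present, their median fold percentiles were 57.3 and 10.4 in controls and 42.3 and 97.0 under Paro/Neo. Their median percentile was thus lower in Paro/Neo replicate 1, whose whole list is kept, than in control replicate 1. Each percentile is a place within its own list, of 821 and 5202 peaks, and does not compare the strength of a site between libraries.

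**Figure D1:**
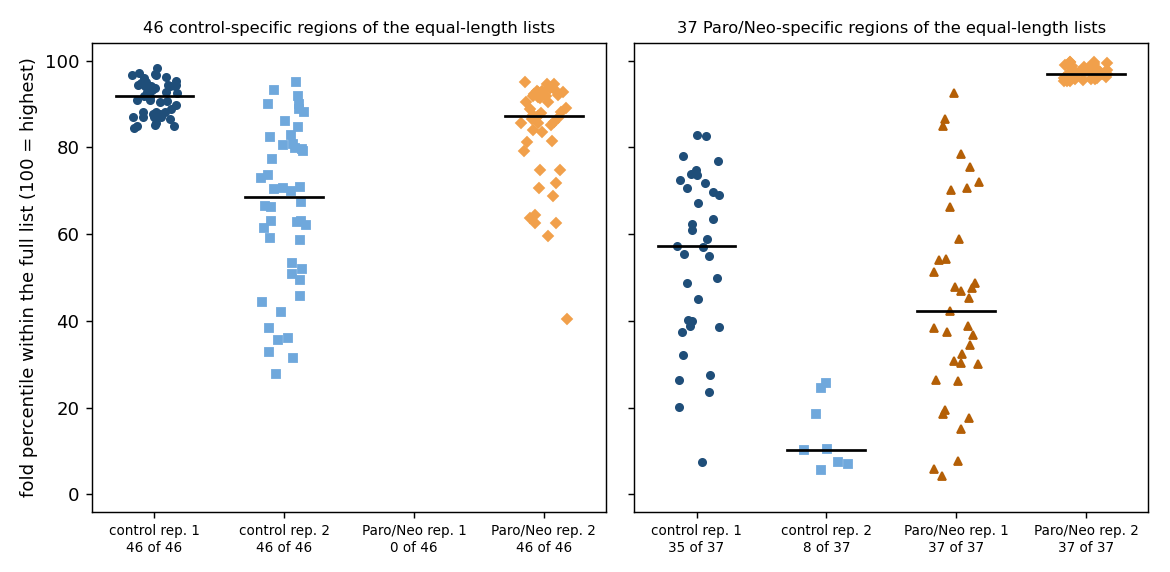
Fold percentile, within the full list of each library, of the 46 control-specific and the 37 Paro/Neo-specific regions of the equal-length lists; points are regions, horizontal bars medians, and the numbers under each library give how many regions it held. The control-specific regions are all present in Paro/Neo replicate 2 (median 87.3) and all absent from Paro/Neo replicate 1. Of the 37 Paro/Neo-specific regions, 35 are present in control replicate 1 (median 57.3, against 42.3 for the 37 in Paro/Neo replicate 1).

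Within the 212 regions called in all 4 equal-length lists, ranks were compared between the groups. In 44 regions (20.8%) both Paro/Neo ranks were nearer the top than both control ranks, in 45 (21.2%) both control ranks were nearer the top, and in 123 the ranks overlapped. The median shift in mean rank, Paro/Neo minus control, was 3.75 places over all 212. Neither direction prevailed in number.

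The places of these 2 sets differed. Of the 45 regions nearer the top in controls, 39 (86.7%) lay within 1 kb of a gene start and 1 (2.22%) within 1 kb of a gene end only. Of the 44 nearer the top under Paro/Neo, 24 (54.5%) lay at a start and 13 (29.5%) at a gene end only. The 123 with overlapping ranks stood between, with 71.5% at a start and 12.2% at an end. With ranks by −log10 q instead of fold, the shares at an end were 10 of 54 for Paro/Neo and 3 of 57 for controls, and with 400 peaks a list they were 3 of 20 and 0 of 24. Without 1 library at a time, between 18 and 22 of the regions nearer the top under Paro/Neo lay at an end, out of 79 to 106, against 1 to 9 of 74 to 106 nearer the top in controls. The regions nearer the top under Paro/Neo were also wider, with a median of 2516 bp against 1156 bp. Where the strand is not in the promoter table, either edge of a gene counted as a start; without such genes, 31 of the 45 and 19 of the 44 regions lay at a start. Gene ends were looked at after the ranks were seen, and no test was made of this difference.

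The 13 end regions nearer the top under Paro/Neo lay at Myl3, Actg1, Mknk2, Ryr2, Pde4dip, Pdk4, Slc25a5, Fabp3, Eif4a2, Tex2, Tpm1, Rsrp1 and Romo1, the last beside Rbm39. The 1 end region nearer the top in controls lay at Ticam1, an adaptor of Toll-like receptor signalling, at ranks 448 and 83 against 670 and 682. Over the whole equal-length lists the share of peaks at a gene end only was 7.43% and 9.38% in controls and 9.50% and 8.16% under Paro/Neo. These shares overlap between the groups, so the lists as a whole did not differ in this way.

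**Figure D2:**
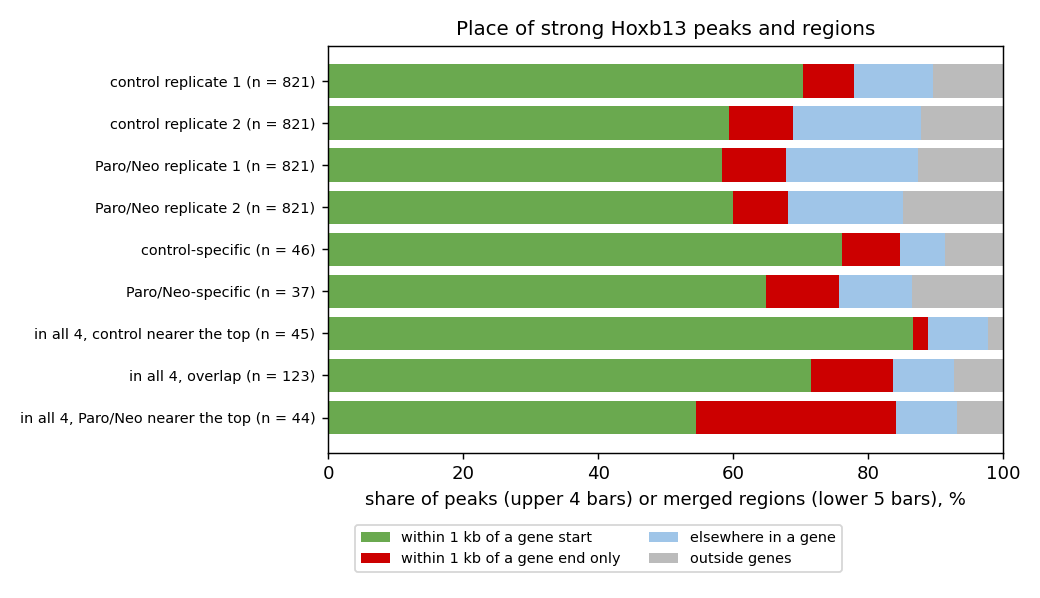
Share of peaks of each equal-length list (upper 4 bars) and of sets of merged regions (lower 5 bars) within 1 kb of a gene start, within 1 kb of a gene end only, elsewhere in a gene, or outside genes. The end share is 29.5% in the 44 regions nearer the top under Paro/Neo and 2.22% in the 45 nearer the top in controls, and 7.43% to 9.50% in the 4 lists.

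Largest among the shifts toward the top under Paro/Neo was the end of Eif4a2, an RNA helicase of translation initiation, next to Rfc4 (chr16:23113949-23115906). It ranked 632 and 634 in controls and 154 and 58 under Paro/Neo, a shift of -527 places. Ddit4, the stress-induced inhibitor of the mTORC1 kinase also called REDD1, went from 579 and 720 to 276 and 109. Tex2 moved from 681 and 558 to 180 and 196. Slc25a5, an ADP/ATP carrier of the inner mitochondrial membrane, ranked 786 and 288 against 175 and 78, and Brpf3 747 and 270 against 141 and 192. In each of these 5 regions the groups did not overlap by fold. By −log10 q the genes Ddit4 (636 and 568 against 207 and 76) and Tex2 (449 and 550 against 165 and 220) were apart as well, whereas Eif4a2, Slc25a5 and Brpf3 were not in all 4 lists.

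In the other direction, the start of Lrch4 (chr5:137628490-137629376) ranked 50 and 143 in controls and 386 and 753 under Paro/Neo, a shift of 473 places. Qk, which encodes the RNA-binding protein Quaking, ranked 189 and 188 against 680 and 521. Ticam1, given above, came next. Sp1, the factor that binds the GC box, ranked 161 and 109 against 637 and 428, and Spcs3, a signal peptidase subunit gene, 79 and 103 against 609 and 343. By −log10 q Lrch4, Qk, Sp1 and Spcs3 were apart in the same direction and Ticam1 was not in all 4 lists. Lrch4, Qk and Sp1 lay at a gene start, and Spcs3 at a gene edge whose strand the table does not hold.

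**Figure D3:**
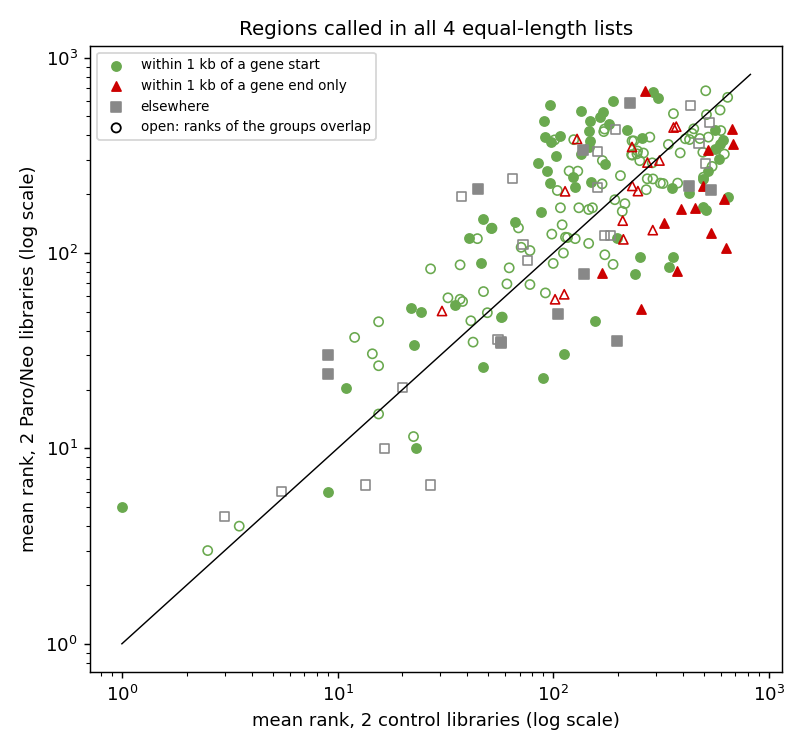
Mean rank in the 2 control lists (x axis, log scale) against mean rank in the 2 Paro/Neo lists (y axis, log scale) for the 212 regions called in all 4 equal-length lists; colour and shape give the place, filled symbols mark regions whose ranks do not overlap between the groups, and the line marks equal ranks. Filled gene-end regions lie below the line (nearer the top under Paro/Neo) in 13 cases and above it in 1.

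Genes of the sarcomere, the contractile unit of the cardiomyocyte, were among those that held the strongest Hoxb13 peaks in every library. Of 32 genes of the thick filament, thin filament and Z-disc, 15 and 17 held a peak in the control equal-length lists and 14 and 15 in the Paro/Neo lists. For comparison, 4.71% and 4.37% of all protein-coding genes held one in the control lists and 4.2% and 4.64% in the Paro/Neo lists. Full lists held 22, 17, 14 and 30 of the 32, beside 24.2%, 5.79%, 4.2% and 46.5% of all genes. The number of sarcomere genes with a strong peak thus overlapped between the groups. The lists were chosen with earlier results of these data known, so the presence of muscle genes is not independent support.

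By rank, 13 sarcomere genes were in all 4 equal-length lists, and in 6 of them both Paro/Neo ranks were nearer the top, in 0 both control ranks, and in 7 the ranks overlapped. Over all 298 genes held in all 4 lists, 58 (19.5%) were nearer the top under Paro/Neo and 62 (20.8%) in controls. The median shift was -22.5 places for the sarcomere genes and 6.5 for all 298. With ranks by −log10 q the sarcomere genes nearer the top under Paro/Neo numbered 7, and with 400 peaks a list 6, with 0 nearer the top in controls either way. Leaving out 1 library gave 8 or 9, against 0 to 3 in the other direction, the 3 without Paro/Neo replicate 1. Genes are not replicates of the treatment, and Myh6 and Myh7 are neighbours, so no test was made.

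In the thick filament, which is built of myosin and holds the motor, the adjacent genes Myh6 and Myh7 encode the alpha and beta myosin heavy chains. The strongest Myh6 peak ranked 49 and 45 in controls and 32 and 20 under Paro/Neo. At Myh7, the slow isoform that predominates before birth, the ranks were 122 and 89 against 29 and 17. Both genes lie in 1 stretch of enrichment, so they are not separate observations: peaks covered 23.6 and 11.7 kb around Myh7 in controls and 14.5 and 71.2 kb under Paro/Neo. Myl2, the ventricular regulatory light chain, ranked 54 and 61 against 48 and 46, a small gap with no overlap. The giant spring protein gene Ttn did not follow, with ranks of 17 and 38 in controls and 20 and 169 under Paro/Neo. Its peaks numbered 67, 44, 44 and 11 in the same order of libraries and covered 168, 90.1, 71.9 and 268 kb, so in Paro/Neo replicate 2 the gene lay under few and very wide peaks. A pair of further members, chosen after their values were seen, were Myl3, the essential light chain, at 125 and 211 against 120 and 38, and Mybpc3, myosin-binding protein C, at 140 and 64 against 79 and 37, where the groups overlapped.

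In the thin filament, built of actin with its calcium switch, no member's groups were apart by the fold rank of its strongest peak. Actc1, cardiac actin, was the highest, at 30 and 15 in controls and 16 and 7 under Paro/Neo. The troponin genes Tnni3 (158 and 260 against 75 and 252) and Tnnt2 (264 and 200 against 148 and 602) had 1 Paro/Neo rank on each side of a control rank. Tropomyosin, Tpm1, ranked 380 and 497 against 405 and 269. By −log10 q it ranked 395 and 539 against 256 and 354, with the groups apart. The region at its end, listed above, was also nearer the top under Paro/Neo. The strongest Actc1 peak lay mostly outside the promoter: of the 250 bases before the Actc1 start, 0, 0 and 0 were covered in the controls and Paro/Neo replicate 1, and 31 in Paro/Neo replicate 2.

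At the Z-disc, where thin filaments are anchored, Ldb3 (also called Cypher) ranked 66 and 48 in controls and 46 and 23 under Paro/Neo. Csrp3, the muscle LIM protein of the stretch-sensing machinery, ranked 214 and 97 against 49 and 41. Its best deposited folds were 4.74, 4.69, 5.19 and 6.90 in the order of libraries used above, values that rank peaks within a list and are not compared between lists. Fhl2, a LIM protein that also acts as a transcriptional coactivator, overlapped at 37 and 37 against 18 and 98. Ankrd1, the load-induced ankyrin repeat protein, was in the equal-length lists of control replicate 2 (rank 682) and Paro/Neo replicate 2 (574) alone.

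**Figure D4:**
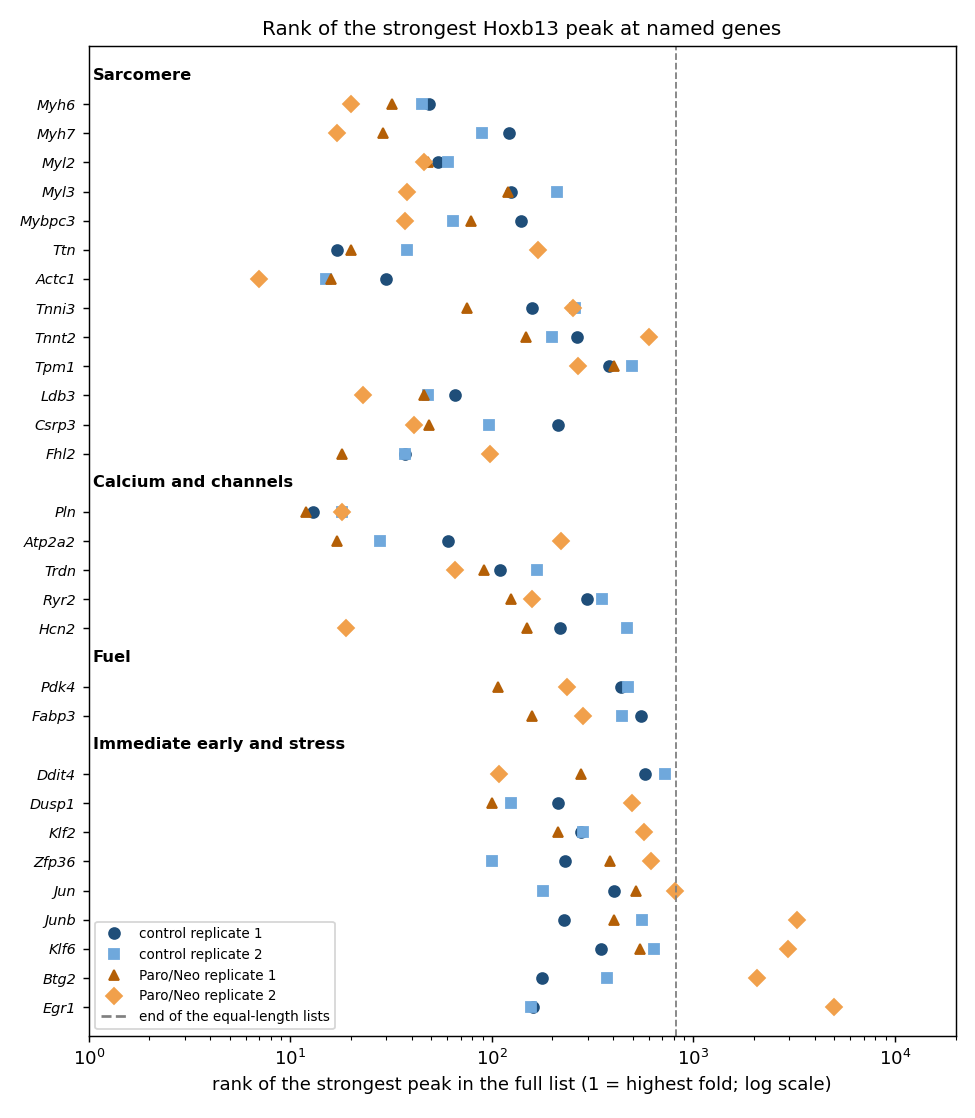
Rank of the strongest peak within 5 kb of each named gene in the full list of each library (log scale, 1 is the highest fold); the dashed line marks the end of the equal-length lists, and a missing symbol means no peak. At Myh7 both Paro/Neo ranks (29 and 17) lie left of both control ranks (122 and 89), whereas Egr1 ranks 160 and 156 in controls, 4970 in Paro/Neo replicate 2 and has no peak in Paro/Neo replicate 1.

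Calcium-cycling genes of the sarcoplasmic reticulum, the store that releases calcium to trigger contraction, held 5 and 6 of 12 members in the control equal-length lists and 6 and 4 in the Paro/Neo lists. The share over all genes was 4.2% to 4.71% in these lists. Of the 4 members held in all lists, 2 were nearer the top under Paro/Neo and 0 in controls. These were Ryr2, the calcium release channel (297 and 353 against 125 and 159), and Trdn, triadin, which tethers it (110 and 167 against 91 and 66). Pln was level at 13 and 18 against 12 and 18. Atp2a2, the calcium pump SERCA2 that phospholamban restrains, spread within the Paro/Neo group from 17 to 220, around the control ranks of 61 and 28. At Ryr2 the peaks covered 16.2, 3.92, 2.63 and 265 kb, the last from 132 peaks of Paro/Neo replicate 2.

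Ion channel genes were held by 2 of 12 in each of the 4 equal-length lists, beside 4.2% to 4.71% of all genes. The peak assigned to Hcn2, a pacemaker channel gene, lies 188 bp from the neighbouring gene Bsg and ranked 218 and 471 in controls and 150 and 19 under Paro/Neo. The L-type calcium channel gene Cacna1c ranked 474 and 192 in controls, 396 in Paro/Neo replicate 1 and 2833 in the full list of Paro/Neo replicate 2. At the intercalated disc, which couples cardiomyocytes, 1, 3, 3 and 3 of 11 members held a strong peak. Gja1, the gap junction protein connexin 43, was among the highest of all genes at 40 and 21 against 66 and 35, with groups overlapping. Jup ranked 742 in control replicate 2 and 324 in Paro/Neo replicate 1, Xirp1 379 in control replicate 2 and 759 and 684 under Paro/Neo, and Pkp2 743 in Paro/Neo replicate 2 alone.

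Genes of fatty acid use, the main fuel of the heart after birth, were held by 2 and 6 of 20 in controls and 6 and 5 under Paro/Neo. All genes were held at 4.2% to 4.71%. The 2 members held in all lists were both nearer the top under Paro/Neo. Pdk4, the kinase that switches pyruvate dehydrogenase off when fat is burned, ranked 438 and 472 in controls and 107 and 235 under Paro/Neo, at the gene's end. Fabp3, the heart fatty-acid-binding protein, ranked 549 and 441 against 158 and 282, also at its end. By −log10 q the groups overlapped for Fabp3 (790 and 541 against 289 and 577), and Pdk4 was not in all 4 lists, so both rest on the ranking by fold. The nuclear receptor genes Esrra (207 against 768 and 538) and Ppara (388 against 598) were absent from the equal-length list of control replicate 1.

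In the other energy pathways, glycolysis and HIF genes numbered 4 and 3 of 20 in controls and 3 and 4 under Paro/Neo, TCA cycle genes 1 and 2 against 2 and 3 of 20, and genes of the respiratory chain and ATP synthase 2 and 4 against 4 and 7 of 35. Gapdh, the glycolytic dehydrogenase, ranked 118 and 186 against 286 and 55. Mdh1, malate dehydrogenase of the cytosol, ranked 341 in control replicate 2 and 397 and 160 under Paro/Neo. The TCA gate enzyme Cs, citrate synthase, was in the Paro/Neo equal-length lists only (676 and 730), with full-list ranks of 3525 and 914 in controls. Its fold percentiles were 32.2 and 18.5 in controls and 17.7 and 95.7 under Paro/Neo. Within its own list it thus stood no higher in Paro/Neo replicate 1 than in either control. Of the ATP synthase genes, Atp5b ranked 206 and 206 against 591 and 107, Atp5a1 241 in control replicate 2 against 162 and 70, and Atp5g1 375 and 229 in controls and 1325 in the full list of Paro/Neo replicate 2. Complex I gene Ndufa12, whose promoter is printed above, was found under Paro/Neo alone (573 and 469). Members therefore went in both directions, 1 control-specific and 1 Paro/Neo-specific among the 35. Of 35 cytosolic ribosomal protein genes 1, 0, 1 and 0 held a strong peak, beside 4.2% to 4.71% of all genes. Their full-list counts were 19, 0, 1 and 33, beside 24.2%, 5.79%, 4.2% and 46.5% of all genes. In the long list of each group they were thus held more often than all genes. Full-list counts were 14, 6, 3 and 20 in the glycolysis list and 10, 4, 2 and 19 in the TCA list. The respiratory list counted 21, 5, 4 and 34.

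Immediate early and stress genes, which respond within minutes to stretch, growth factors or tissue handling, held more strong peaks in controls than under Paro/Neo. Of 25 members, 12 and 10 held a peak in the control equal-length lists and 9 and 6 in the Paro/Neo lists, and the groups did not overlap. By −log10 q the numbers were 10 and 10 against 9 and 6, and with 400 peaks a list 7 and 6 against 5 and 1. Full lists held 21 and 11 in controls and 9 and 24 under Paro/Neo, which do overlap. The shares of all genes were 4.2% to 4.71% at equal length and 24.2%, 5.79%, 4.2% and 46.5% in the full lists. Control-specific at equal length were Egr1 and Btg2, 2 of 25 beside 0.292% of all genes, and 0 were Paro/Neo-specific. Of the 5 in all 4 lists, 2 were nearer the top in controls, 1 under Paro/Neo and 2 overlapped, with a median shift of 128.5 places beside 6.5 for all 298 genes.

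Zfp36, which encodes the mRNA-decay factor tristetraprolin, ranked 230 and 100 in controls and 384 and 615 under Paro/Neo. Jun, a subunit of AP-1 chosen here after its values were seen, ranked 402 and 180 against 520 and 815. By −log10 q the groups were apart for Zfp36 (246 and 115 against 305 and 397) and overlapped for Jun (467 and 232 against 359 and 820). Dusp1, a phosphatase that turns off MAP kinases, ranked 213 and 125 against 100 and 495, and the shear-responsive factor gene Klf2 277 and 284 against 214 and 570, with overlap in both. Ddit4 went the other way, as given above. The median shift of the 5 shared members is that of Dusp1. Of the 9 members held in both control lists, 5 were held in both Paro/Neo lists too, Egr1 and Btg2 were in neither, and Junb and Klf6 were missing from Paro/Neo replicate 2.

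Genes of the cell cycle, the process that stops in cardiomyocytes after birth, held strong peaks at about the rate of all genes. Of 30 cell cycle drivers 1 held one in each equal-length list, beside 4.2% to 4.71% of all genes. Cdk2 ranked 435 and 289 in controls and 791 in Paro/Neo replicate 2, and E2f3 303 in Paro/Neo replicate 1. Among 10 CDK inhibitors and pocket proteins, the brakes of the cycle, 2, 1, 2 and 1 held one. Cdkn2d (p19) was in all 4 full lists, at 216 and 77 in controls and 215 and 1158 under Paro/Neo. Cdkn2c ranked 414 in control replicate 1 and 640 in Paro/Neo replicate 2, and Rb1 181 in Paro/Neo replicate 1. Cdkn1b (p27) had peaks in control replicate 1 (rank 1094) and Paro/Neo replicate 2 (3245), and Cdkn1a (p21) in Paro/Neo replicate 2 alone (4533). No list held a peak at Cdkn2a or Cdkn2b, the Ink4 locus.

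None of 38 Hox genes, Hoxb13 among them, held a peak in any of the 4 full lists. Meis1 (rank 7850) and Meis2 (12998) had peaks in Paro/Neo replicate 2 alone, at fold percentiles of 53.7 and 23.4. Of the 11 TALE homeobox genes, to which both belong, 5, 0, 0 and 9 held a peak in the full lists and 0, 0, 0 and 1 in the equal-length lists. The shares of all genes were 24.2%, 5.79%, 4.2% and 46.5% in the full lists and 4.2% to 4.71% at equal length. In the calcineurin and NFAT list 0, 1, 0 and 1 of 10 held a strong peak, Nfatc3 in control replicate 2 (751) and Ppp3cb in Paro/Neo replicate 2 (576). Ppp3ca (7823) and the calcineurin regulator Rcan1 (7420) were reached by Paro/Neo replicate 2 alone.

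In the Hippo pathway, which restrains growth of the heart through YAP and its TEAD partners, 3 and 4 of 18 members held a strong peak in controls and 3 and 3 under Paro/Neo. For this list and the next 2, the share over all genes was 4.2% to 4.71%. Tead3 ranked 197 and 52 against 73 and 688, and Amotl2, an inhibitor that binds YAP, 325 and 140 against 338 and 103. Nf2, the upstream scaffold merlin, ranked 60 in control replicate 2 and 613 in Paro/Neo replicate 2, and Tead1 748 in control replicate 1 and 404 in Paro/Neo replicate 1. ErbB and IGF signalling genes numbered 2 and 2 of 18 in controls and 2 and 0 under Paro/Neo, with Gsk3b at 382 and 279 in controls, 592 in Paro/Neo replicate 1 and 1761 in the full list of Paro/Neo replicate 2. Igf1r (762 and 510 in control and Paro/Neo replicate 1) and Irs2 (594 in control replicate 2) were the others. Cardiac transcription factor genes held 2 and 2 of 18 in controls and 3 and 3 under Paro/Neo. Hand2 ranked 731 and 208 in controls and 248 in Paro/Neo replicate 1, Tbx20 647 and 316 in the second replicates, Srf 637 and 338 in control replicate 1 and Paro/Neo replicate 2, and Myocd 131 in Paro/Neo replicate 1. Tead3 and Amotl2 were the members of these 3 lists held in all 4 libraries, and both overlapped.

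Markers of other cells of the ventricle were counted because whole ventricles were used. Their counts at equal length stand beside 4.2% to 4.71% of all genes. Endothelial markers held 2 and 3 of 19 in controls and 3 and 7 under Paro/Neo. Egfl7 (199 and 380 against 218 and 44) and Fabp4 (405 and 223 against 105 and 351) were held in all 4 and overlapped. Sox18 ranked 477 and 583 in the second replicates, and Flt1 240 in Paro/Neo replicate 2 alone. Fibroblast markers held 1 of 15 in every list, Vim. Smooth muscle and pericyte markers held 0, 3, 0 and 1 of 10, macrophage and leukocyte markers 3, 1, 0 and 1 of 14, and erythroid markers 1, 1, 1 and 0 of 10. Acta2 ranked 735 and 399 in the second replicates, Cd68 590 and 605 in the controls, and Epor 472 and 137 in controls and 213 in Paro/Neo replicate 1. The endothelial count of 7 came from Paro/Neo replicate 2, and replicate 1 matched control replicate 2 at 3. The part of cell composition in the differences between groups was not tested. Genes of tissues other than heart held 1, 1, 0 and 0 of 30.

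**Figure D5:**
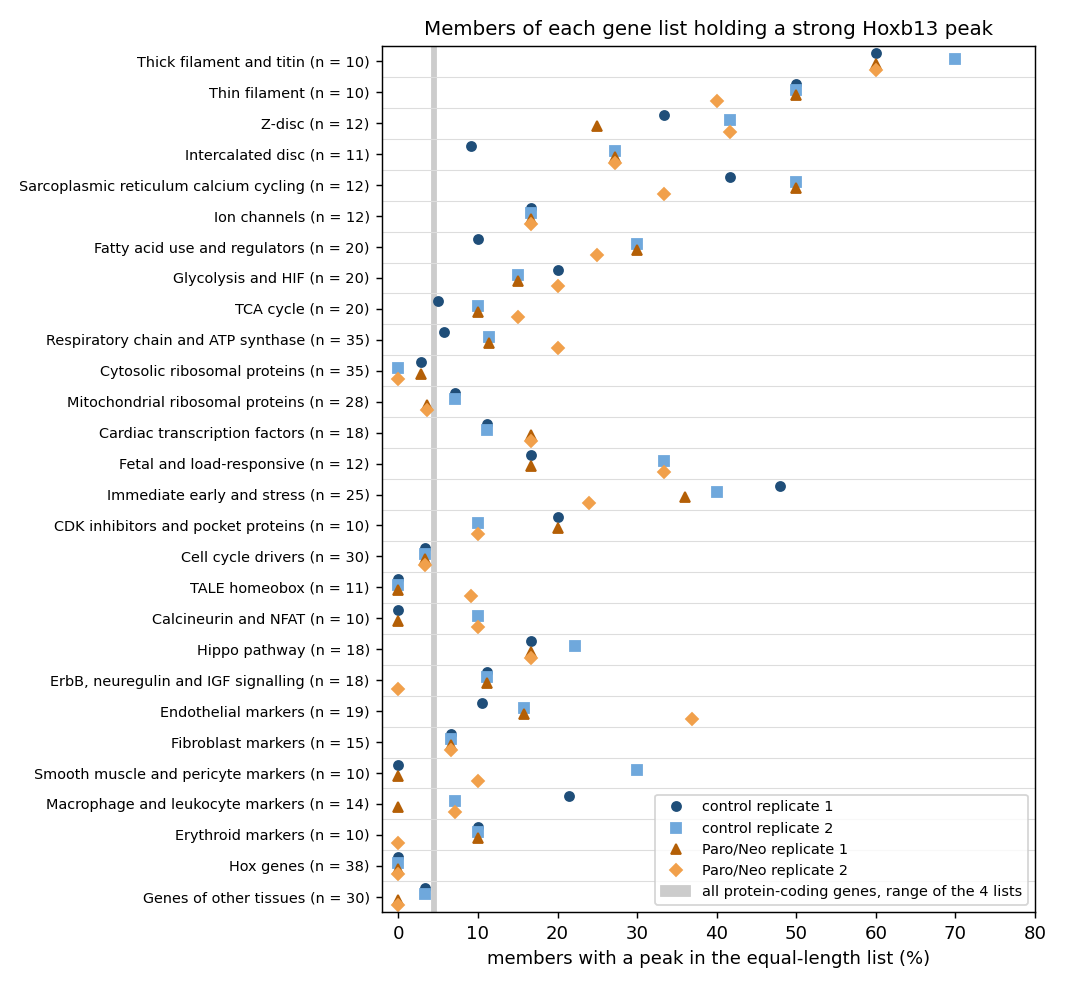
Percent of the members of each of 28 gene lists that hold a peak in the equal-length list of each library, within 5 kb of the gene; the grey band is the range over all protein-coding genes in the 4 lists (4.2% to 4.71%). Immediate early and stress genes sit at 12 and 10 of 25 in controls and 9 and 6 under Paro/Neo, whereas sarcomere lists overlap between the groups and Hox genes are at 0 in all 4.

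The place of strong peaks differed little between the groups. Within 1 kb of a gene start lay 70.4% and 59.4% of the strongest peaks in controls and 58.3% and 59.9% under Paro/Neo, a difference of -5.79 percentage points (exact permutation p = 0.667), with control replicate 1 apart from the other 3 lists. Outside genes with 5 kb on each side lay 5.72% and 6.70% in controls and 7.92% and 10.6% under Paro/Neo, a difference of 3.05 points. Here the groups did not overlap and p took the smallest value the exact permutation test can give, 0.333. With lists ranked by −log10 q the difference was 1.10 points and with 400 peaks 0.875 points, and in both the groups overlapped (exact permutation p = 0.667). Median widths at equal length were 557 and 412 bp in controls and 348 and 755 bp under Paro/Neo, a log2 difference of 0.10 (exact permutation p = 1) that turned to -0.46 when Paro/Neo replicate 2 was left out and to -0.12 when control replicate 2 was. In the 449 regions called in all 4 full lists, the median length under peaks was 899 and 511 bp in controls and 395 and 1416 bp under Paro/Neo, and Paro/Neo replicate 2 was the widest library in 397 of them.

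The strongest Hoxb13 peaks met Meis1 peaks to a like extent in both groups. Of them, 9.87% and 7.19% in controls and 9.01% and 12.5% under Paro/Neo shared a base with a peak in either Meis1 control list, a difference of 2.25 points (exact permutation p = 0.667). Meis1 control peaks lay in 9 of the 44 regions nearer the top under Paro/Neo (20.5%) and in 7 of the 45 nearer the top in controls (15.6%). They lay in 40 of all 212 regions called in the 4 equal-length lists (18.9%), so both sets were near that share.

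Promoters under the strongest peaks were rich in G and C in all 4 libraries. RefSeq promoters (300 bases, from 250 before to 50 after the start) overlapped by an equal-length peak numbered 555 and 424 in controls and 385 and 493 under Paro/Neo, of 21263. Their mean GC content was 65.0% and 65.8% against 66.8% and 64.9%, beside 56.2% over all promoters. The GC box core GGGCGG was present, on either strand, in 79.6% and 85.8% against 86.0% and 80.5%, beside 46.2% of all. The groups overlapped in both.

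A pair of short sequences read by HOXB13 in binding assays were searched on both strands as well. CAATAAA was in 3.78% and 4.25% of the promoters under control peaks and 3.38% and 4.46% under Paro/Neo peaks, beside 3.85% of all promoters. CGTAAA was in 3.96% and 4.25% against 5.97% and 4.46%, beside 3.38%, with no overlap between the groups. The TALE-type core TGACAG was in 15.9% and 18.9% against 17.9% and 16.8%, beside 18.7%. The other motifs searched were CTAAAAATA (MEF2), CATTCC (TEAD), TCAAGGTCA (estrogen-related receptors), TGAGTCA (AP-1), TGACGTCA (CREB) and the core promoter box TATAAA, and none contains another. They were in 0.409%, 13.6%, 0.334%, 4.66%, 2.23% and 12.6% of all promoters. CATTCC was in 11.4% and 11.1% of the promoters under control peaks and 7.53% and 8.72% under Paro/Neo peaks, so the groups did not overlap and both lay below the share of all promoters. TATAAA was in 5.41% and 4.95% against 5.45% and 5.88%, and TGACGTCA in 1.62% and 0.943% against 2.34% and 1.83%, again without overlap. The groups overlapped for TGAGTCA (1.98% and 2.12% against 0.779% and 2.03%), and also for CTAAAAATA and TCAAGGTCA. These shares rest on few promoters, for TGACGTCA on 9 and 4 against 9 and 9. With 2 lists a group, some motifs can be apart by order alone, and the motif shares were not tested. A match is a description of these letters in the promoter window, and motif content away from promoters was not analysed here.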

How the data were processed

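ChIP-seq was run by the submitters on mouse ventricles, and the 4 Hoxb13 peak lists were analysed here with the Meis1 control lists for overlap; the inputs were not used. Per the submitters' processing notes, the build was mm10 and the tools were Bowtie2, MACS2, HOMER, Picard 1.127 and FastQC 0.11.5. How peaks were called, and against which input, is not stated there. The deposited lists, 1 per library, give for each peak a fold enrichment ratio over local background, made by the authors' peak caller, and were used to rank peaks within a list only. Each peak's deposited −log10 q value, also the authors', served as an alternative ranking; the smallest in any list was 1.00.

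Chromosomes 1 to 19, X and Y were used. Ranks, merging, overlaps and exact permutation tests were computed with Python 3.11.15, numpy 2.4.6 and pandas 2.3.3, checked on simulated lists; figures used matplotlib 3.10.9. Genes and promoters are RefSeq GRCm38.p6, whose coordinates are those of mm10: 21887 protein-coding genes, of which 17492 have a promoter with its strand. A gene start means a promoter table start with 1 kb on each side (either gene end where no strand is given); a gene end needs the strand. All 513 entries of the 28 gene lists matched. Depth is unknown, so no detection limit is attached to an absent peak.

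Named by rule were up to 10 group-specific regions per group with the lowest mean rank (full lists: all if 5 or fewer, otherwise 10 by fold percentile), the 10 shared regions of lowest mean rank, the 5 largest rank shifts each way with groups apart, up to 4 members of each gene list in the most equal-length lists, and the genes of the Hoxb13 and Meis1 axis. The regions, gene lists and tests were chosen with earlier results of these data known. Replicate numbers match across groups in the labels, but no label ties them to a shared litter or day, so the replicate block is given only with the alternatives. Alternatives were another ranking, shorter lists, a stricter q, other merging and gene rules, the replicate block and leaving out each library.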

Additional observations from a re-analysis of the deposited data

How the results depend on the processing

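With 2 lists a group, no p can fall under 0.333, or 0.5 with the replicate block, and depth is unknown. With the replicate block the differences kept their values (0.63 for log2 peak number, 0.78 for log2 covered length) with exact sign-flip p from 0.5 to 1; the numbers share only a label, and replicate 1 was the longer list in controls and the shorter under Paro/Neo. Of 56 values under settings that kept all libraries, 46 kept their direction and stayed within the limits set for a change. Those that moved were the Paro/Neo-specific regions with 400 peaks a list (20, from 37), the control-specific genes within the body alone (39) or 1 kb of a start (41, from 64), and the Paro/Neo-specific genes with 400 peaks (34), body alone (36) or start (31, from 55). With 400 peaks, 20 regions and 24 genes were nearer the top under Paro/Neo and 24 and 27 in controls; fewer peaks entered. The alternatives on rank shifts were chosen after seeing the data.

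Leaving out 1 library turned the log2 peak number to -0.48 (control replicate 2 left out) and -1.56 (Paro/Neo replicate 2 left out; highest 2.81), the log2 covered length to -0.26 and -1.48 (highest 3.04) and the log2 width to -0.12 and -0.46 (highest 0.66). A group left with 1 list needs no agreement between lists, and a group set against 1 list has fewer lists to be absent from. The counts stayed the same or grew by that construction. Control-specific regions ranged from 6 to 590 in full and 100 to 326 in equal-length lists, Paro/Neo-specific ones from 36 to 12572 and 70 to 380. Control-specific genes ranged from 1 to 580 and 138 to 363, Paro/Neo-specific genes from 32 to 5042 and 104 to 392. Regions nearer the top ranged from 79 to 106 for Paro/Neo and 74 to 106 for controls, genes from 109 to 142 and 105 to 150, and sarcomere genes nearer the top in controls from 0 to 3.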

Other observations

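The following genes, known from FoxO or glucocorticoid signalling, were chosen after their values were seen, so they support no direction. Txnip, the thioredoxin-binding protein gene induced by glucose, ranked 190 and 290 in controls and 21 and 136 under Paro/Neo, with the groups apart. Sgk1, a kinase gene induced by glucocorticoids, ranked 1437 in control replicate 1 and 503 and 224 under Paro/Neo, and had no peak in control replicate 2. By fold rank, Trim63 (1141 and 846 against 513 and 45), Ddit4 and Pdk4 were also nearer the top under Paro/Neo. So was Depp1 (888 against 124 and 279), which had no peak in control replicate 2. Full-list ranks depend on list length, and percentiles on how far down each list reaches. As fold percentiles, Trim63 stood at 78.1 and 24.6 in controls and 37.6 and 99.7 under Paro/Neo, so the groups overlapped. Sgk1 stood at 72.4 in control replicate 1 against 38.8 and 98.7, and Depp1 at 82.9 against 85.0 and 98.4. The clock gene Per1 ranked 479 and 493 against 146 and 721, overlapping by fold, but 487 and 685 against 202 and 401 by −log10 q, with the groups apart. Tsc22d3, the glucocorticoid-induced leucine zipper, overlapped at 665 and 371 against 301 and 1088, as did Klf9 at 443 and 448 against 437 and 513. Fkbp5 and Fbxo32 had a peak in Paro/Neo replicate 2 alone, at ranks 5587 and 5129.

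Other muscle and mitochondrial genes with the groups apart, also chosen after the values were seen, included Slc25a4, the heart ADP/ATP carrier (143 and 81 against 30 and 31). Plin4, a lipid droplet coat gene, ranked 26 and 20 against 9 and 11. Hspb7, the cardiovascular small heat shock protein gene, ranked 553 and 573 against 336 and 514. By −log10 q Hspb7 was not in every equal-length list, so it rests on the ranking by fold. Nearer the top in controls were Sik1, a salt-inducible kinase gene (176 and 118 against 287 and 556), and Stip1, a cochaperone gene (202 and 95 against 366 and 386). Hsp90ab1 ranked 210 and 650 in controls and 1186 in Paro/Neo replicate 2, with no peak in Paro/Neo replicate 1.

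Mitochondrial DNA, left out of all counts above, held 2 and 6 peaks in controls and 2 and 2 under Paro/Neo. These covered 11645 and 5999 bp against 11363 and 11717 bp, at deposited folds between 1.40 and 1.67.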
